A study of Homo sapiens with 6 samples.

Results

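Genes for chaperones of the endoplasmic reticulum (ER) and for ER-associated degradation were examined in HaCaT cells, an immortalised human keratinocyte line that carries mutant p53, after a single X-ray dose of 20 Gy. The set was fixed by name as HSPA5, HSP90B1, HERPUD1, XBP1, DNAJB9, PDIA4, CALR, SDF2L1, EDEM1 and SEL1L, and a gene was taken as measured where a transcript cluster of the array carried its symbol and no other. By this rule 9 of the 10 genes were measured, of 22411 genes with a single symbol in all. The cluster of HSP90B1 also carries the symbol MIR3652, so no level is given for it. Mock cultures received 0 Gy and irradiated cultures 20 Gy at 1.15 Gy per min, and RNA was collected after 48 h. Each group held 3 cultures with 1 array each, numbered 1 to 3 in both groups, and arrays with the same number were compared as a pair. All cultures were of this single line, so the values describe one immortalised line, and with 3 pairs small changes could be missed.

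The ER folds secreted and membrane proteins with an HSP70 chaperone (BiP, the product of HSPA5), lectin chaperones and disulfide isomerases, and it exports chains that fail to fold to the cytosol for degradation by the proteasome. When unfolded chains accumulate, the sensors IRE1, PERK and ATF6 signal to the nucleus, and the transcription factors XBP1, ATF4 and cleaved ATF6 raise the genes of both systems. Keratinocytes use this machinery for adhesion proteins, matrix proteins and secreted factors. The stress response acts on many of its target genes through short promoter elements. Promoter windows are therefore shown first for 4 genes, from 250 bases before to 50 bases after the RefSeq transcription start (GRCh38.p14). The elements searched on both strands were the ER stress response element ERSE (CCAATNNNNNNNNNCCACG), ERSE-II (ATTGGNCCACG), an XBP1-type element (TGACGTGG, here UPRE) and a C/EBP-ATF element (TTGCATCA), the kind of site that ATF4 binds with a C/EBP partner. Capitals mark the matches.

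The first pair of windows holds ERSE-II, HERPUD1 at chr16:56931892-56932191 on the forward strand and SDF2L1 at chr22:21642052-21642351 on the forward strand. The HERPUD1 window also holds the C/EBP-ATF element, as the earlier of its capital stretches.
HERPUD1: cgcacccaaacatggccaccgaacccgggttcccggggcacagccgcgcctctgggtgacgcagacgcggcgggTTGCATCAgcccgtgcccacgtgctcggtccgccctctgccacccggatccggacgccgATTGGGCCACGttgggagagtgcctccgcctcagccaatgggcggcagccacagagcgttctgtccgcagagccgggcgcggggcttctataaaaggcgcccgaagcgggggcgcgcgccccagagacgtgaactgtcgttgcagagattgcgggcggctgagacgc
SDF2L1: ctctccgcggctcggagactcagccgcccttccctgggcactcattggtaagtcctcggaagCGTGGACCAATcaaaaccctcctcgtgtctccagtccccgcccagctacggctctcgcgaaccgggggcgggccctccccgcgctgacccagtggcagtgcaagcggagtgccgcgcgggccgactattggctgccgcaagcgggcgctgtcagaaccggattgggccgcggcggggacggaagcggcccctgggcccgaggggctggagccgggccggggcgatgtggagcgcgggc
The second pair holds ERSE, HSPA5 at chr9:125241294-125241593 on the reverse strand and XBP1 at chr22:28800520-28800819 on the reverse strand.
HSPA5: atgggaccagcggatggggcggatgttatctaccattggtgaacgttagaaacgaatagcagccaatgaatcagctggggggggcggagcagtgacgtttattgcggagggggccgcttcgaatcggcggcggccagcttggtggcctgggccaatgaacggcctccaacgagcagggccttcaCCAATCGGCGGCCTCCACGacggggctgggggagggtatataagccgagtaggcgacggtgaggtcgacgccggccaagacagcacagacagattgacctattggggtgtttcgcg
XBP1: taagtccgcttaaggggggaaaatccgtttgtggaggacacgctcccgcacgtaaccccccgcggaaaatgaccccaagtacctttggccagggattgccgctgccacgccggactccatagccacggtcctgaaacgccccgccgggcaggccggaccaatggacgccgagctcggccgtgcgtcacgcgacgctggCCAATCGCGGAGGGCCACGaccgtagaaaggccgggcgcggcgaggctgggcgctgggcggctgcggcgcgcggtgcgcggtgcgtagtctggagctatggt

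ERSE was found in 27 of 35116 windows of that length (0.0769%) and in those of 4 of the 10 genes, HSPA5, XBP1, CALR and HSP90B1. ERSE-II was found in 19 windows (0.0541%), among them those of HERPUD1 and SDF2L1. The C/EBP-ATF element was in 304 windows (0.866%) and, of these 10 genes, in HERPUD1. UPRE was in 256 windows (0.729%) and in none of the 10. XBP1 and PDIA4 each have a further RefSeq start whose window held none of the 4 elements. The XBP1 window printed is the one with ERSE. Windows of DNAJB9, PDIA4, EDEM1 and SEL1L held none of these 4 elements, which says only that these letters are not in the windows searched. The element matches did not overlap each other in the windows printed. These matches describe sequence and are not measured binding sites.

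HERPUD1 fell after irradiation in all 3 pairs by nearly the same amount, to 0.742 of the mock level, and it was 1 of 8 genes of the set above background to pass the test. The lumenal chaperones HSPA5, CALR, PDIA4 and SDF2L1 and the transcription factor XBP1 did not pass, with differences between -0.097 and 0.23 on the log2 scale. EDEM1 and SEL1L, which act in degradation like HERPUD1, lay at -0.22 and -0.11 and did not pass. For every measured gene of the set, culture number held more of the spread over arrays than irradiation did. Among the 9324 singly named genes above background, the paired limma test called 5.01% in either direction and 3.71% as lower.

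**Figure D1:**
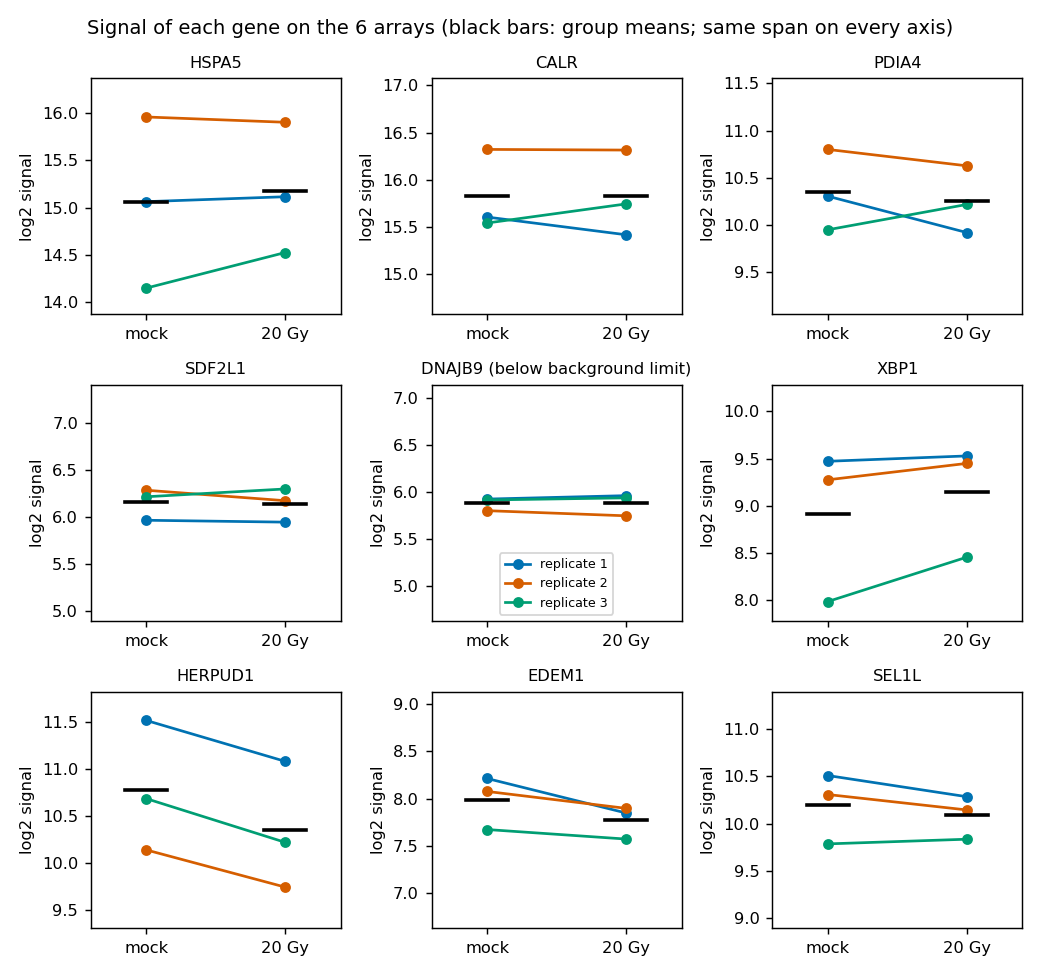
Log2 signal of the 9 measured genes on the 6 arrays, mock on the left and 20 Gy on the right of each panel, with a line joining the arrays of each replicate number and black bars at the group means. HERPUD1 declines along all 3 lines, from 10.78 to 10.35 on average, while XBP1 is higher in all 3 pairs and the lines of HSPA5, CALR and PDIA4 run in different directions.

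The median difference was 0.014 over all 22411 measured genes and -0.089 over the 9324 above background, 71.8% of which were lower, and pair medians of -0.12, -0.079 and -0.063. Genes above background had a mean over 6 arrays above the brightest of 23 background control sets (6.01, itself between 5.04 and 7.25 on single arrays). Of the 467 calls 121 were higher, and after quantile normalization 119 of 203, so the share of decreases rests on scaling, and the 3 rescalings moved the median of genes above background to between -0.015 and 0.0093. The same paired test over all 67528 transcript clusters called 0 (0%), with 10237 at unadjusted p under 0.05 and a lowest adjusted p of 0.210. All 7 measured keratinocyte markers (of 10 listed) lay above background, of which the junction proteins DSP and PKP1 fell by 0.42 and 0.55 (adjusted p = 0.0360 and 0.0295). The other keratinocyte markers did not pass, among them DSG3 (-0.34, adjusted p = 0.0642) and CDH1, which was higher (0.12, 0.374). The summed keratinocyte marker signal ran from 18.5 to 19.4 in mock and from 18.2 to 19.3 in irradiated arrays. Of 22 measured markers of fibroblasts, melanocytes, endothelial and immune cells, 2 lay above background (CD68 and MITF), and PTPRC, PECAM1, DCN, COL1A1 and MLANA did not. CD68, a lysosomal protein of macrophages and other cells, rose by 0.44, and the summed immune marker signal ran from 8.08 to 8.37 in mock and from 8.34 to 8.71 in irradiated arrays. That sum is mostly CD68, since the other immune markers lay below background, and CD14 was lower (-0.20). Summed signals ran from 6.86 to 7.02 and from 6.97 to 7.04 for fibroblast, up to 7.40 and up to 7.53 for melanocyte, and from 6.51 to 6.73 and from 6.73 to 7.05 for endothelial markers, mock first. The fibroblast and endothelial sums hold only markers below background, so they do not show cells of these kinds. The part of these markers in the results below was not tested, and fewer cells of a kind cannot be told apart from less RNA per cell.

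Degradation genes come first. HERPUD1 encodes a ubiquitin-like protein of the ER membrane that organises the HRD1 ligase complex for degradation. Its log2 signal was 11.51, 10.14 and 10.68 in mock cultures 1, 2 and 3, and 11.08, 9.75 and 10.22 in the irradiated cultures of the same numbers. Each irradiated array lay below its mock partner, but the groups overlapped, because culture 1 was high and culture 2 low in both. The pair differences were -0.43, -0.39 and -0.46, with an SD of 0.035 that was smaller than that of most genes, since 5.91% of genes above background had a smaller one. From 10.78 ± 0.69 to 10.35 ± 0.68 (SD, n = 3 per group), HERPUD1 fell by 0.43 (SE 0.071, 95% interval from -0.60 to -0.26, adjusted p = 0.0319). The call needed the replicate block and the limit on dim genes: the adjusted p was 0.9995 without the block, 0.0888 over all genes with a single symbol and 0.210 over all clusters. It was also lost without replicate 1, 2 or 3 (0.0616, 0.119 and 0.0885) and after each of 3 rescalings (0.0622 to 0.0695), while the difference stayed between -0.45 and -0.33.

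EDEM1 recognises mannose-trimmed misfolded glycoproteins and hands them to degradation. Its signal was 8.21, 8.08 and 7.67 in mock cultures 1 to 3 and 7.85, 7.90 and 7.57 in irradiated ones. All 3 irradiated arrays lay below their partners, most in culture 1, and the groups overlapped. The mean difference of -0.22 (SE 0.080, 95% interval from -0.41 to -0.024) did not pass (adjusted p = 0.141). SEL1L, the adaptor that holds substrates at the HRD1 ligase, read 10.51, 10.31 and 9.79 in mock and 10.29, 10.15 and 9.84 in irradiated cultures. It was lower in pairs 1 and 2 and slightly higher in pair 3, with a mean difference of -0.11 (SE 0.083, 95% interval from -0.31 to 0.087, adjusted p = 0.403). Both decreases shrank after the 3 rescalings, to between -0.13 and -0.12 for EDEM1 and between -0.031 and -0.014 for SEL1L.

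Lumenal chaperones showed no common direction. HSPA5, the BiP chaperone that also keeps the stress sensors inactive, read 15.06, 15.96 and 14.15 in mock and 15.12, 15.90 and 14.52 in irradiated cultures. Pairs 1 and 2 differed by 0.052 and -0.056, and the mean difference of 0.12 (95% interval from -0.13 to 0.37, adjusted p = 0.457) came from 0.38 in pair 3. Without replicate 3 it was -0.0020. CALR, a calcium-binding lectin chaperone, read 15.61, 16.32 and 15.54 in mock and 15.42, 16.32 and 15.74 in irradiated cultures. Its pair differences of -0.19, -0.0069 and 0.20 averaged 0.0026 (95% interval from -0.23 to 0.24, adjusted p = 0.988). PDIA4, a disulfide isomerase with several thioredoxin-like domains, read 10.30, 10.80 and 9.95 in mock and 9.92, 10.63 and 10.22 in irradiated cultures. It had the widest spread of pair differences in the set (-0.39, -0.17 and 0.27), a mean of -0.097 and an interval from -0.40 to 0.21 (adjusted p = 0.641). A p above the threshold does not show that these 3 genes were unaffected, and the intervals give the sizes that the arrays allow.

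SDF2L1 and DNAJB9 act beside BiP and were dim. SDF2L1, which joins BiP complexes with the cochaperone DNAJB11, read 5.96, 6.28 and 6.21 in mock and 5.94, 6.17 and 6.30 in irradiated cultures, with both arrays of number 1 below the background limit. Its difference of -0.016 (95% interval from -0.18 to 0.15) did not pass (adjusted p = 0.896). DNAJB9, a J-domain cochaperone that restrains IRE1, read 5.92, 5.80 and 5.92 in mock and 5.96, 5.75 and 5.94 in irradiated cultures, all below the limit. It entered the test over all clusters only (difference 0.0014, adjusted p = 0.995). At such signals the size of a change is not determined.

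XBP1 encodes the transcription factor that IRE1 activates by splicing its mRNA, and the gene-level signal does not tell the spliced from the unspliced form. It read 9.47, 9.28 and 7.99 in mock and 9.53, 9.45 and 8.46 in irradiated cultures. All 3 irradiated arrays were higher, by 0.057, 0.17 and 0.47, and culture 3 was low in both groups. The mean difference of 0.23 (SE 0.097, 95% interval from 0.0017 to 0.47) did not pass (adjusted p = 0.171). HERPUD1, EDEM1 and XBP1 were thus the 3 of 8 genes above background that went the same way in all pairs, where 51.9% of all genes above background did. In 0 of the 8 were the mock and irradiated arrays fully apart, against 9.23% of all genes above background.

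**Figure D2:**
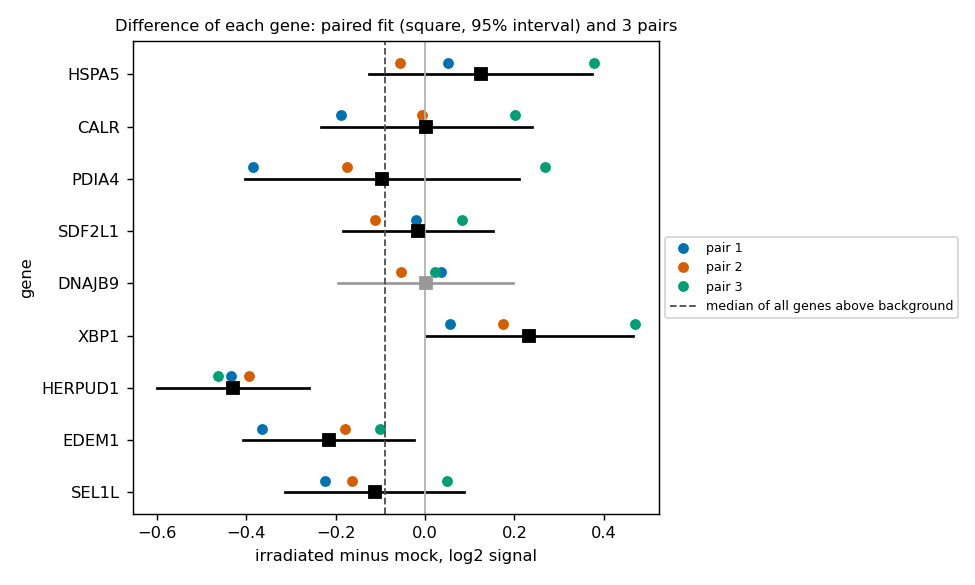
Irradiated minus mock log2 signal of the 9 measured genes, with squares and lines for the paired limma estimate and its 95% interval, dots for the 3 pairs and a dashed line at the median of all genes above background (-0.089). DNAJB9, in grey, comes from the fit over all clusters. HERPUD1 is set apart from 0 with its 3 pairs between -0.46 and -0.39. The intervals of EDEM1 (-0.41 to -0.024) and XBP1 (0.0017 to 0.47) also leave out 0, but neither gene passed the test.

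In pair 3 most genes of the set were higher. There 7 of the 9 measured genes were higher in the irradiated culture, against 3 in pair 1 and 1 in pair 2, and 7 of 9 had their highest difference in it. The medians over the 9 genes were -0.19, -0.11 and 0.083 in pairs 1, 2 and 3. Over all pairs the median was -0.016, and over the 8 genes above background -0.056, beside -0.089 for all genes above background. Culture 3 had the lowest level of 5 of the 9 genes (HSPA5, XBP1, PDIA4, EDEM1 and SEL1L). A higher pair 3 was not particular to the set. Over genes above background, the pair medians were -0.21, -0.14 and 0.14 for the set and -0.13, -0.15 and 0.17 for cytosolic and mitochondrial chaperones. They were -0.19, -0.10 and 0.085 for the glycan folding cycle, and -0.12, -0.079 and -0.063 for all genes above background. In pair 3 the sensor, degradation and translocon lists described below stayed negative (-0.087, -0.11 and -0.034). The difference between pairs was not tested.

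Culture number held most of the spread. It took between 69.6% (EDEM1) and 97.2% (HSPA5) of the sum of squares over the 6 arrays, with a median of 91.0% over the 8 genes above background and 79.4% over all genes above background. Culture number has 2 degrees of freedom and irradiation 1, so number takes the larger share even of noise. The labels give replicate numbers only, so culture cannot be told apart from any batch that arrays of the same number shared. HSPA5 differed 3.02-fold between its highest and lowest culture (pair means of 15.93 in number 2 and 14.34 in number 3), HERPUD1 2.55-fold (11.30 in number 1 and 9.94 in number 2), XBP1 2.43-fold and CALR 1.75-fold. HSPA5, CALR and PDIA4 were highest in culture 2, where HERPUD1 was lowest. Irradiation held 24.0% for EDEM1, 13.0% for HERPUD1, 4.71% for SEL1L, 3.90% for XBP1 2.23% for PDIA4 and 0.883% or less for the others. The remainder was 0.0561% for HERPUD1 and 17.6% for PDIA4.

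**Figure D3:**
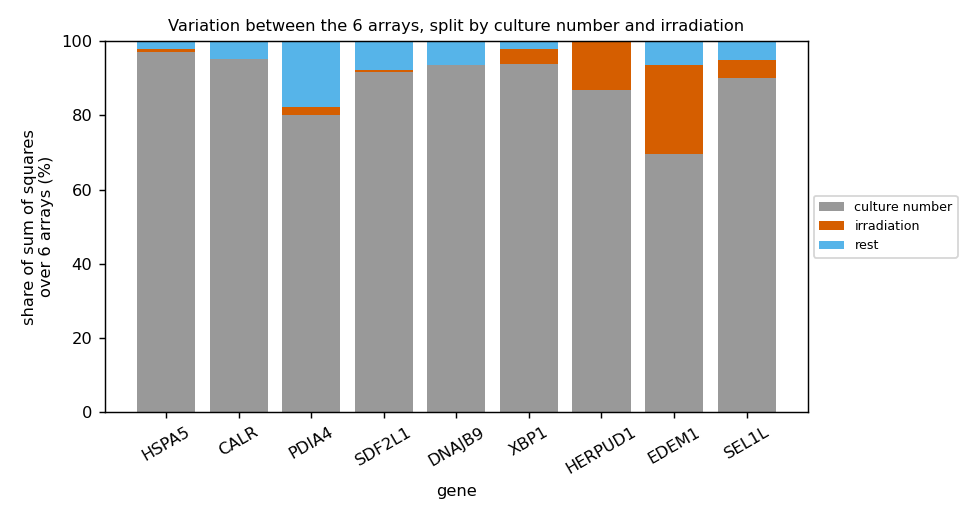
Share of the sum of squares over the 6 arrays held by culture number, irradiation and the rest for each of the 9 measured genes, as stacked bars that each sum to the whole. Culture number takes 69.6% to 97.2%, and EDEM1 and HERPUD1 have the largest shares for irradiation (24.0% and 13.0%).

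The mean pattern of the 8 genes above background, each centred on its own mean, was 0.20, 0.27 and -0.38 in mock and 0.016, 0.16 and -0.27 in irradiated cultures. Of the 8, EDEM1 and SEL1L lay nearest to it (root mean square distances of 0.11 and 0.11 on the log2 scale over 6 arrays). HERPUD1 lay farthest (0.64). Each of the 8 genes is itself part of that mean, so these distances carry no test. The genes named next lay nearer to it than any of the 8, so the mean is not a pattern particular to the set. Outside the set, the nearest genes above background were SLK, a STE20-like kinase (0.033), PIM1, a serine/threonine kinase (0.039), ZNF605, a zinc finger gene (0.041), F2R, the thrombin receptor (0.041), and L3MBTL2, a chromatin protein (0.043). Since they were chosen by likeness over the same 6 arrays, their differences between irradiated and mock arrays carry no test.

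The upstream sensors and their transcription factors included 1 call. Of 11 genes in that list 9 were above background, 7 of which were lower and 1, DDIT3, passed, with a list median of -0.24 beside -0.089 over all genes above background. After quantile normalization, cyclic loess or centring 7 of 9 were again lower, with medians between -0.18 and -0.15. DDIT3 encodes CHOP, a target of ATF4, and read 6.95, 5.68 and 6.05 in mock and 6.52, 5.35 and 5.79 in irradiated cultures. It fell by 0.34 (SE 0.068, adjusted p = 0.0448), but 3 of its 6 arrays lay below the background limit, so the size of the change is not determined. Its call was lost in 10 of 10 alternative settings. EIF2AK3, which encodes PERK, lay at -0.29 (adjusted p = 0.0962), ATF4 at -0.17 (0.271) and CREB3L2 at -0.23 (0.183). The last 2 rested on pair 1 (-0.39 and -0.49), and lay at -0.064 and -0.10 without replicate 1. ATF6B (-0.27, adjusted p = 0.0842) and the proteases that cleave ATF6, MBTPS1 (-0.31, 0.113) and MBTPS2 (-0.24, 0.106), did not pass either. ATF6 (0.016, adjusted p = 0.917) and CREB3 (0.021, 0.866) lay near 0. ERN1, which encodes IRE1, and PPP1R15A, the phosphatase subunit that restores translation, lay below background, with -0.081 (adjusted p = 0.631 over all clusters) and 0.18 (0.481).

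Of the other degradation components none passed. Of 24 above background 23 were lower on the deposited scale, with a median of -0.11, and 9 had an unadjusted p under 0.05, as did 2692 of all 9324 genes above background. The count of lower genes rests on scaling, since 15, 15 and 13 of the 24 were lower after quantile normalization, cyclic loess and centring, with medians between -0.048 and -0.014. EDEM2, a relative of EDEM1, lay at -0.31 (adjusted p = 0.0813), with mock arrays between 8.29 and 8.40 and irradiated arrays between 7.86 and 8.24. NGLY1, which strips glycans from exported chains, lay at -0.26 (adjusted p = 0.0965). SYVN1, the HRD1 ligase, chosen after its value was seen, lay at -0.13 (adjusted p = 0.265).

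Folding factors close to the set showed few calls, and the directions of their lists turned with the scaling: on the deposited scale the medians of the next 5 lists were below 0, and after centring all 5 were above 0 (0.018 to 0.063). Of 9 HSP70 and HSP40 partners above background, 6 were lower and 0 passed, with a median of -0.036. Their smallest p-values were those of the BiP cochaperones DNAJB11 (-0.20, adjusted p = 0.140) and DNAJC3 (-0.16, 0.204). A second, dimmer cluster of DNAJB11 differed in size, at -0.51 (adjusted p = 0.210 in the paired test over all clusters). In the glycan folding cycle 7 of 8 were lower and 0 passed (median -0.039), with glucosidase II subunits PRKCSH at -0.29 (adjusted p = 0.0716) and GANAB at -0.17 (0.346), which was -0.050 without replicate 1. Of 18 oxidoreductases and prolyl isomerases 12 were lower, and FKBP2, an ER prolyl isomerase, fell by 0.38 (SE 0.077, adjusted p = 0.0457). It read 10.05, 10.18 and 10.50 in mock and 9.75, 9.68 and 10.15 in irradiated cultures, lower in every pair. Its call was lost in 9 of 11 alternative settings, with the difference between -0.42 and -0.28.

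In the translocon and glycan transfer list 11 of 15 were lower and 0 passed (median -0.036), with the translocon-associated subunits SSR2 at -0.26 (adjusted p = 0.0704) and SSR1 at -0.18 (0.184). Cytosolic and mitochondrial chaperones, included for comparison, had 9 of 14 lower and 0 calls (median -0.039). DNAJA1, a cytosolic cochaperone, was higher in all pairs (from 12.74 to 13.11, difference 0.37, adjusted p = 0.0544), and passed after each of the 3 rescalings (0.0436 to 0.0490). DNAJB1 lay at -0.24 (0.113). Over the 97 genes of these 7 lists above background, 2 were called, both lower, beside 5.01% of all genes above background.

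**Figure D4:**
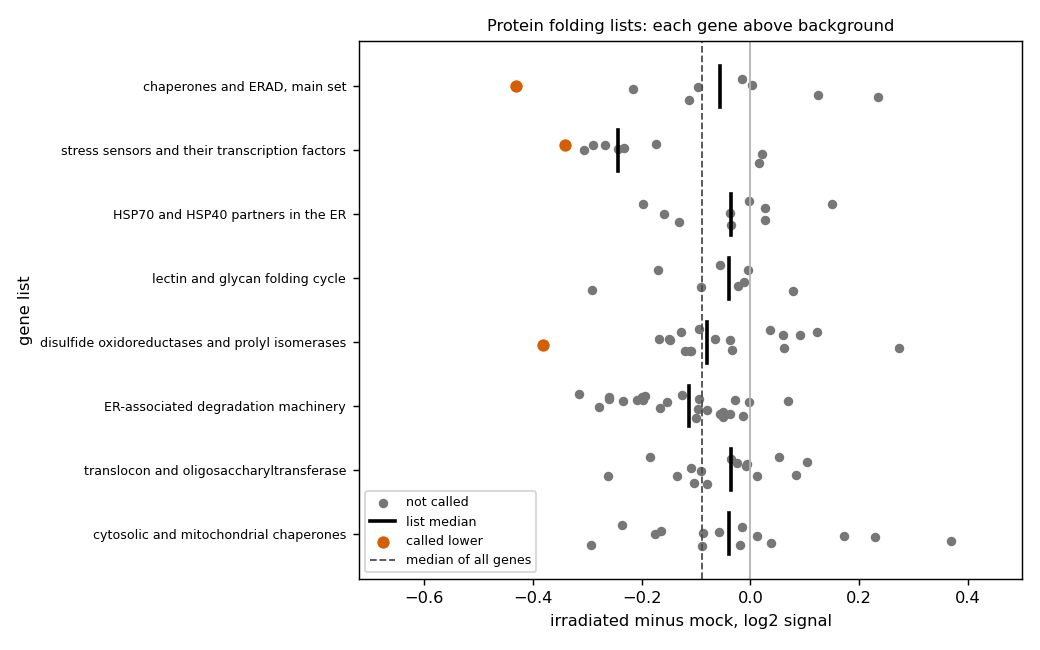
Irradiated minus mock log2 signal for each gene above background in the main set and the 7 other folding lists (vertical position within a row is arbitrary), with black bars at list medians and a dashed line at the median of all genes above background. On the deposited scale shown, orange points are the 3 genes that passed, HERPUD1, DDIT3 and FKBP2, and the sensor list has the lowest median (-0.24).

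The promoter elements were then set beside the measured changes. Of 44 genes with ERSE or ERSE-II in their window 26 were above background, with 17 lower, 9 higher and a median of -0.054, beside 71.8% lower and a median of -0.089 over all genes above background. The 12 with ERSE ran from -0.18 to 0.34 and held 0 calls. The 14 with ERSE-II held 2 calls, HERPUD1 and the antisense transcript ZNF143-AS1. ZNF143-AS1 fell by 0.51 (adjusted p = 0.0360) and was named after its value was seen. Of the 14 with ERSE-II 11 were lower and 3 higher, with a median of -0.082. ZNF143, also with ERSE-II, lay at -0.11 (adjusted p = 0.412), and HYOU1, an HSP70 and HSP40 partner, at -0.0021 (0.990). These were likewise named after their values were seen. Of all genes above background 5.01% were called, 3.71% as lower. Within the set, genes with ERSE-II lay at -0.43 (HERPUD1) and -0.016 (SDF2L1), and those with ERSE at 0.12 (HSPA5), 0.23 (XBP1) and 0.0026 (CALR). Differences between these genes were not tested, the intervals of the 3 with ERSE overlap, and SDF2L1 is too dim for the size of a change to be determined.

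**Figure D5:**
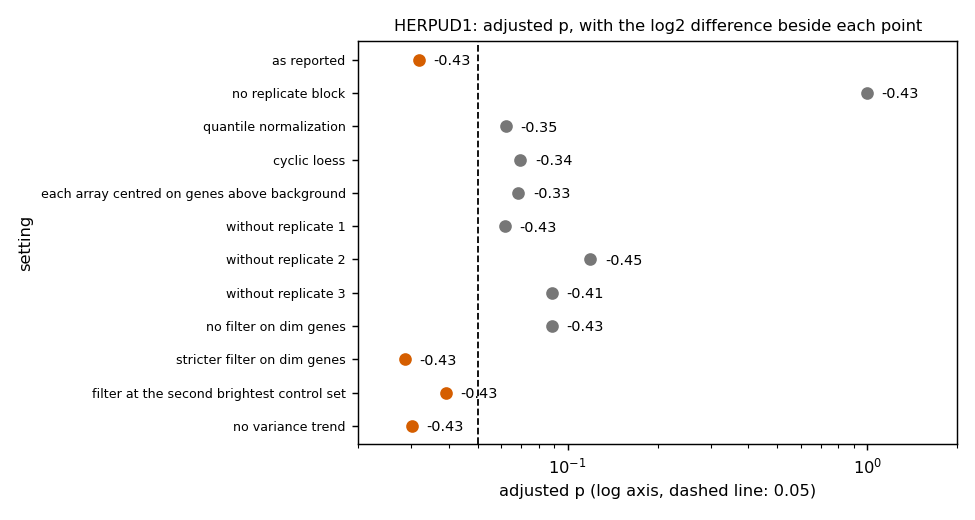
Adjusted p of HERPUD1 on a log axis under the reported fit and each alternative setting, with the log2 difference printed beside each point and a dashed line at the threshold. The difference stays between -0.45 and -0.33, while the adjusted p runs from 0.0287 with a stricter limit on dim genes to 0.9995 without the replicate block.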

How the data were processed

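HaCaT RNA was measured on 6 arrays, 3 per group. The authors deposited log2 signals, from RMA per the submitters' processing notes, as 2 tables, of genes and of exons. Per the file headers the exon table came from an SST-RMA workflow. It held 0 transcript clusters and was used only to compare the 2995 features found in both tables, which were identical. No version or genome build is stated in the labels or headers, and arrays have no read depth.

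Symbols came from the platform annotation (23781 clusters with 1 symbol, 1543 with several) and were updated through the RefSeq table of GRCh38.p14. Promoters are RefSeq's. The brightest cluster stood for a gene. Tests used limma 3.58.1 under R 4.3.3 (lmFit, eBayes with trend, two-sided, Benjamini-Hochberg, threshold 0.05), with the replicate number as a block, and checked on simulated data. The same numbers pair the cultures: mock and irradiated deviations from their group mean had correlations of 0.523, 0.644 and 0.705 for equal numbers, and of -0.555 to 0.0721 otherwise. Deviations cancel out within each group, so positive correlations for equal numbers push those for unequal numbers towards negative values. The labels name biological replicates but not their days or passages. Alternatives were no block, 3 rescalings, other limits on dim genes, no trend and leaving out each pair.

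Named genes were the set, all sensors and, per other list, up to 3 called genes by size or otherwise the 2 with the smallest p, plus the 5 nearest patterns. The members, lists, block and limit were chosen with earlier results of these data known.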

Additional observations from a re-analysis of the deposited data

How the results depend on the processing

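Among all genes tested, 467 were called in the reported fit, against 0 without the replicate block, 0 with no limit on dim genes, 203 after quantile normalization, 179 after cyclic loess and 269 after centring each array. Leaving out 1 pair gave 66 to 251 (251, 66 and 140 without replicate 1, 2 and 3). Of the chaperone and degradation set, 1 gene was called, and 0 under all of those alternatives. Of the other 7 lists 2 were called, against 0 without the block, with no limit, with the limit at the second brightest control set (chosen after seeing the data) and without any 1 pair, 1 under a stricter limit or without a variance trend (FKBP2), and 1 after each rescaling, which was DNAJA1, higher. The count over all transcript clusters was 0 wherever it was run.

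Directions turned for small differences. After quantile normalization SLK lay at 0.026 and PIM1 at 0.025. After cyclic loess SDF2L1 lay at 0.015, SLK at 0.021, PIM1 at 0.030 and L3MBTL2 at 0.0021. After centring PDIA4 lay at 0.0019, SDF2L1 at 0.083, ERN1 at 0.018, SLK at 0.042, PIM1 at 0.049, ZNF605 at 0.053, F2R at 0.015 and L3MBTL2 at 0.069. Leaving out 1 pair moved HSPA5 between -0.0020 and 0.21, DNAJB9 between -0.016 and 0.029, PDIA4 between -0.28 and 0.047, CALR between -0.097 and 0.098, SDF2L1 between -0.065 and 0.031, ATF6 between -0.061 and 0.075, CREB3 between -0.014 and 0.056, PIM1 between -0.14 and 0.014, and L3MBTL2 between -0.069 and 0.0059. Leaving out 1 pair moved other differences that did not pass by over 1.5 times without turning them. Without replicate 1 EDEM1 lay at -0.14, SEL1L at -0.057, ERN1 at -0.054, ATF4 at -0.064, CREB3L2 at -0.10, GANAB at -0.050, SLK at -0.034 and ZNF605 at -0.0031. Without replicate 2 PPP1R15A lay at 0.049, SLK at -0.034 and F2R at -0.015. Without replicate 3 XBP1 lay at 0.12, SEL1L at -0.19, GANAB at -0.31, SLK at -0.10, ZNF605 at -0.093 and F2R at -0.17. Centring subtracts a single value from each array, so it moved every difference upward by the same amount. Decreases shrank, with ATF6B at -0.17, DNAJB11 at -0.098, GANAB at -0.072, SSR2 at -0.16 and NGLY1 at -0.16. HSPA5 and XBP1 then lay at 0.22 and 0.33. The turns and shifts listed after centring are this same offset, and the cause of the moves under the other settings was not tested.

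Among the genes named, a second cluster existed for DNAJB11 only, at -0.51 (adjusted p = 0.210 over all clusters). The exon table holds no transcript clusters, so it gave no alternative values. Signals near the background limit do not fix the size of a change.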
